A study of Homo sapiens with 9 samples.

Results

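Aminoacyl-tRNA synthetases are the enzymes that join each amino acid to its own transfer RNA, the step that supplies the ribosome with charged tRNA. A list of 35 of their genes was followed here in MDA-MB-231 cells given GNE-140, and 34 were measured among 22392 genes of the arrays. The list holds 19 genes of the cytosolic enzymes, whose symbols end in 1 or are FARSA and FARSB, and 16 genes of the mitochondrial enzymes, whose symbols end in 2. All 19 cytosolic genes and 15 of the mitochondrial genes had a probe set that names them alone. SARS2, the mitochondrial seryl-tRNA synthetase, lay only on 2 probe sets annotated with several genes and was given no value. VARS1 had 2 probe sets and VARS2 had 7, and for each gene the probe set with the strongest mean signal was used.

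MDA-MB-231 is a cell line of triple-negative breast cancer, and GNE-140 is an inhibitor of lactate dehydrogenases A, B and C. The titles and treatment labels give 5 control arrays and 4 arrays of cells with GNE-140, in 2 sets: 3 control arrays (A, B and C) and 2 GNE-140 arrays (A and B) in set 1, and 2 control and 2 GNE-140 arrays (A and B each) in set 2. A dose of 50 µM is stated for the series as a whole, and a time of 24 h in the protocol shared by controls and treated cells, all of which grew in high-glucose medium with serum. GNE-140 was dissolved in DMSO, and the labels do not say that the controls received it. For 6 of the 9 arrays, which include every GNE-140 array and the controls of set 2, the source name speaks of a Boswellia preparation and not of GNE-140 or of no treatment. The study's text also divides the arrays between the sets and groups in other numbers than the labels, which were followed here. This conflict of labels touches every comparison given here, and leaving out those arrays would leave no GNE-140 array. The labels do not say that the arrays came from separate cultures, so p-values measure only the spread between these arrays, which may be technical. In RNA from whole cultures, fewer cells with a transcript and less of it per cell cannot be told apart.

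Each enzyme recognises an amino acid and the tRNAs that carry its codons, and mitochondria mostly use enzymes of their own, encoded in the nucleus and imported. GARS1 and KARS1 are exceptions that encode the glycyl and lysyl enzymes of both compartments. The enzymes fall into class I and class II by the fold of the catalytic domain, and several cytosolic ones (EPRS1, IARS1, LARS1, QARS1, MARS1, KARS1 and RARS1) are bound together in the multisynthetase complex. Many of the cytosolic genes are known targets of ATF4, the transcription factor of the amino acid response, which binds a C/EBP-ATF response element as a dimer with C/EBP proteins.

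The core of that element, TGATGNAA, was searched on both strands of the RefSeq promoter windows of build GRCh38.p14, which run from 250 bases before to 50 bases after each transcript start. Of the 30 members found in the table (39 windows), 7 of 16 cytosolic genes (AARS1, CARS1, GARS1, IARS1, MARS1, NARS1 and TARS1) and 1 of 14 mitochondrial genes (YARS2) held it, beside 4.46% of all 27305 gene symbols and 3.62% of all 35116 windows. AARS2, VARS1, VARS2, LARS1 and YARS1 were not in the table. A few of the matches are printed along the gene's strand with the 8 bases of the core in capitals. They show the TGATGCAA core close to the start of 4 cytosolic genes and a core with G in place of C in the mitochondrial gene. The other cytosolic matches varied in core and distance. AARS1 held TGATGCAA 187 bases before its start, GARS1 held TGATGAAA 33 bases before its start, and TARS1 held TGATGCAA past its start. Coordinates in brackets are those of the whole printed stretch, flanks included, and the strand beside them is that of the gene. Distances are those of the core alone. The MARS1 match (chr12:57488053-57488082, plus strand) began 4 bases before the start, the CARS1 match (chr11:3057407-3057436, minus strand) 2 bases before and the IARS1 match (chr9:92293692-92293721, minus strand) 13 bases before. In YARS2 (chr12:32756076-32756105, minus strand) the match lay 197 bases before the start, while the NARS1 match (chr18:57621804-57621833, minus strand) lay past the start, within the transcript. MARS1, CARS1 and IARS1 carry the core on the opposite strand, so that it reads TTGCATCA here.
MARS1: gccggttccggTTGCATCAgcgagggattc
CARS1: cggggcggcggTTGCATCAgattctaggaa
IARS1: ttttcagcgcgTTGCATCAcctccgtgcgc
NARS1: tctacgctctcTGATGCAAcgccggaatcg
YARS2: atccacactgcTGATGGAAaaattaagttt

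All 34 measured synthetase genes gave a log2 signal above the array's median on each of the 9 arrays, and 30 lay above the third quartile on each. The array medians were between 1.32 and 1.36 in set 1 and between 2.27 and 2.31 in set 2, so the sets lie on different scales and every difference given here is one within a set, or one from both sets with the set as a block in the model. A log2 fold change below 0 means a lower signal with GNE-140. Markers of mesenchymal breast lines were high (5 of 6 above the third quartile on all arrays), no fibroblast or leukocyte marker was that high, and of the luminal markers EPCAM and KRT19 were. None of these markers was called, and their part in the results was not tested.

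With the set as a block, none of the 34 genes was called at an adjusted p under 0.1 (limma, Benjamini-Hochberg over all probe sets), while 0.964% of the 53617 probe sets and 1.70% of the 22392 genes were. The lowest adjusted p among the members was 0.217, for EPRS1. None passed the study's fuller thresholds either, as applied here to the fit with the set as a block. These also asked for an unadjusted p under 0.05 and more than a 2-fold difference in that fit. The direction had to be the same in each set, and 0.177% of probe sets passed. The study's text asks that both direction and significance repeat in the 2 sets, whereas significance within each set was not required here. Within set 1 and within set 2 limma called 0 members and 0% of probe sets, with lowest adjusted p-values among the members of 0.579 and 0.292. A response that differed between the sets was called for 0 members and for 0.0541% of probe sets, the lowest adjusted p of a member being 0.533. At an unadjusted p under 0.05 these fits had 4 members in set 1 (11.8%, beside 5.64% of all genes), 5 in set 2 (14.7%, beside 11%) and 4 for the difference between the sets (11.8%, beside 8.28%).

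The differences were small. Their intervals pool the spread of both sets, and the values that repeat exactly in set 1, described below, add no spread. For IARS1, whose set 1 arrays all carried the same value, the SE was 0.07 with the set as a block and 0.13 in set 2 alone. The width of the intervals therefore rests in part on those repeated values. The 95% interval of the log2 fold change lay within 0.5 of 0 for 31 of the 34 genes, the median half-width was 0.17, and the bound farthest from 0 was 0.63, for MARS2. The median absolute log2 fold change was 0.10 for the members and 0.09 for all genes. At an unadjusted p under 0.05, 6 members (17.6%) were lower, beside 6.16% of all genes, and 1 (2.94%) was higher, beside 7.51% of all genes. The 6 were EPRS1, MARS1 and WARS1 of the cytosol and FARS2, IARS2 and WARS2 of the mitochondria, and the other was MARS2. By sign alone, 25 of the 34 (73.5%) had a negative log2 fold change, beside 47.7% of all genes.

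**Figure D1:**
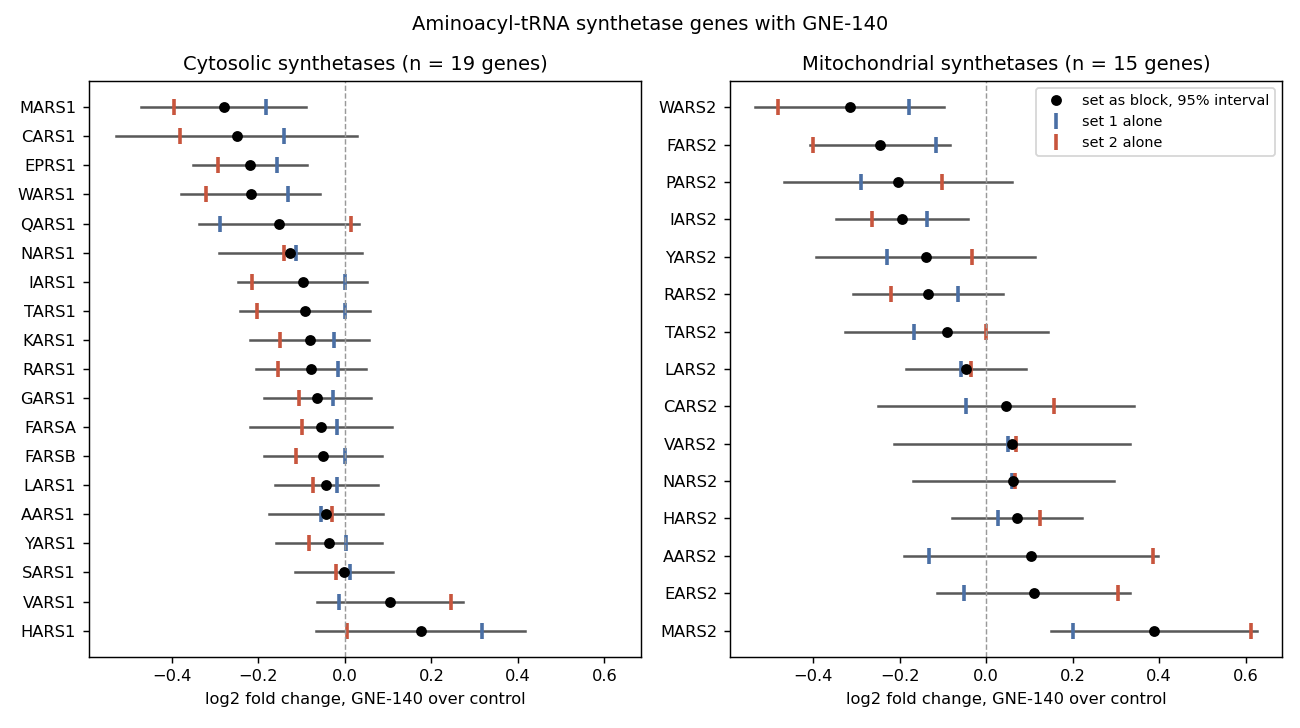
Log2 fold change of GNE-140 over control (horizontal axis) for the 19 cytosolic and 15 mitochondrial synthetase genes, in order of the value with the set as a block. Black points and lines are that value and its 95% interval, blue and red ticks the values within set 1 and set 2; the intervals of 7 genes do not reach 0, those of MARS1, EPRS1, WARS1, WARS2, FARS2 and IARS2 below it and that of MARS2 above it.

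The arrays behind those 7 genes are given one gene at a time, in the order A, B, C. WARS2 and MARS2 were due as the members with the largest fall and rise, and the other genes were picked after their values were seen. EPRS1, which encodes the enzyme that charges both glutamate and proline tRNA, had log2 signals of 7.55, 7.53 and 7.55 on the control arrays and 7.41 and 7.37 on the GNE-140 arrays of set 1, and 8.16 and 8.06 against 7.80 and 7.83 in set 2. Every GNE-140 array was below every control array of its set, by at least 0.12 in set 1 and 0.23 in set 2. The log2 fold change was -0.22 (SE 0.06, 95% interval -0.35 to -0.09, limma adjusted p = 0.217), with -0.16 in set 1 and -0.29 in set 2.

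MARS1, the cytosolic methionyl enzyme and like EPRS1 a part of the multisynthetase complex, read 6.16, 6.40 and 6.16 on the controls and 6.16 and 5.96 with GNE-140 in set 1, and 7.81 and 7.81 against 7.39 and 7.43 in set 2. The groups were 0.37 apart in set 2, but in set 1 only 0.0013 separated the lowest control from the nearest GNE-140 array. Its log2 fold change was -0.28 (SE 0.08, 95% interval -0.47 to -0.09, limma adjusted p = 0.288), with -0.18 in set 1 and -0.40 in set 2.

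WARS1, the cytosolic tryptophanyl enzyme, which interferon-gamma is known to induce, read 4.47, 4.54 and 4.49 against 4.38 and 4.36 in set 1, and 5.70 and 5.68 against 5.48 and 5.26 in set 2. No GNE-140 array reached a control of its set. For WARS1 the log2 fold change was -0.22 (SE 0.07, 95% interval -0.38 to -0.06, limma adjusted p = 0.323).

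WARS2, its mitochondrial counterpart, had the largest fall among the members. The signals were 5.09, 5.16 and 5.07 on the controls and 4.84 and 5.02 with GNE-140 in set 1, and 6.28 and 6.02 against 5.57 and 5.77 in set 2. The groups did not overlap in either set, with gaps of 0.05 and 0.25, although in set 2 the control arrays differed from each other by about as much as that gap. This gave a log2 fold change of -0.32 (SE 0.10, 95% interval -0.53 to -0.10, limma adjusted p = 0.295), a fold of 0.80, with -0.18 in set 1 and -0.48 in set 2.

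FARS2, the mitochondrial phenylalanyl enzyme, read 3.81, 3.8 and 3.8 against 3.67 and 3.70 in set 1, and 4.95 and 4.87 against 4.52 and 4.51 in set 2. These arrays were close within groups and separate between them. FARS2 had a log2 fold change of -0.24 (SE 0.07, 95% interval -0.41 to -0.08, limma adjusted p = 0.271), and the value in set 2 was -0.40 against -0.12 in set 1, a difference that was not called (adjusted p = 0.533).

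For IARS2, the mitochondrial isoleucyl enzyme, the controls read 6.29, 6.19 and 6.17 and the GNE-140 arrays 6.15 and 6.01 in set 1, and 7.16 and 7.19 against 6.83 and 6.98 in set 2. The nearest arrays were 0.02 apart in set 1 and 0.18 in set 2. Its log2 fold change was -0.19 (SE 0.07, 95% interval -0.35 to -0.04, limma adjusted p = 0.36).

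MARS2, the mitochondrial methionyl enzyme, was the member with the largest rise. It read 4.35, 4.48 and 4.19 on the controls and 4.60 and 4.49 with GNE-140 in set 1, and 5.52 and 5.45 against 6.19 and 6.01 in set 2. The GNE-140 arrays were above the controls in both sets, by 0.50 in set 2 and by only 0.0068 in set 1. The log2 fold change was 0.39 (SE 0.10, 95% interval 0.15 to 0.63, limma adjusted p = 0.229), a fold of 1.31, with 0.20 in set 1 and 0.61 in set 2.

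**Figure D2:**
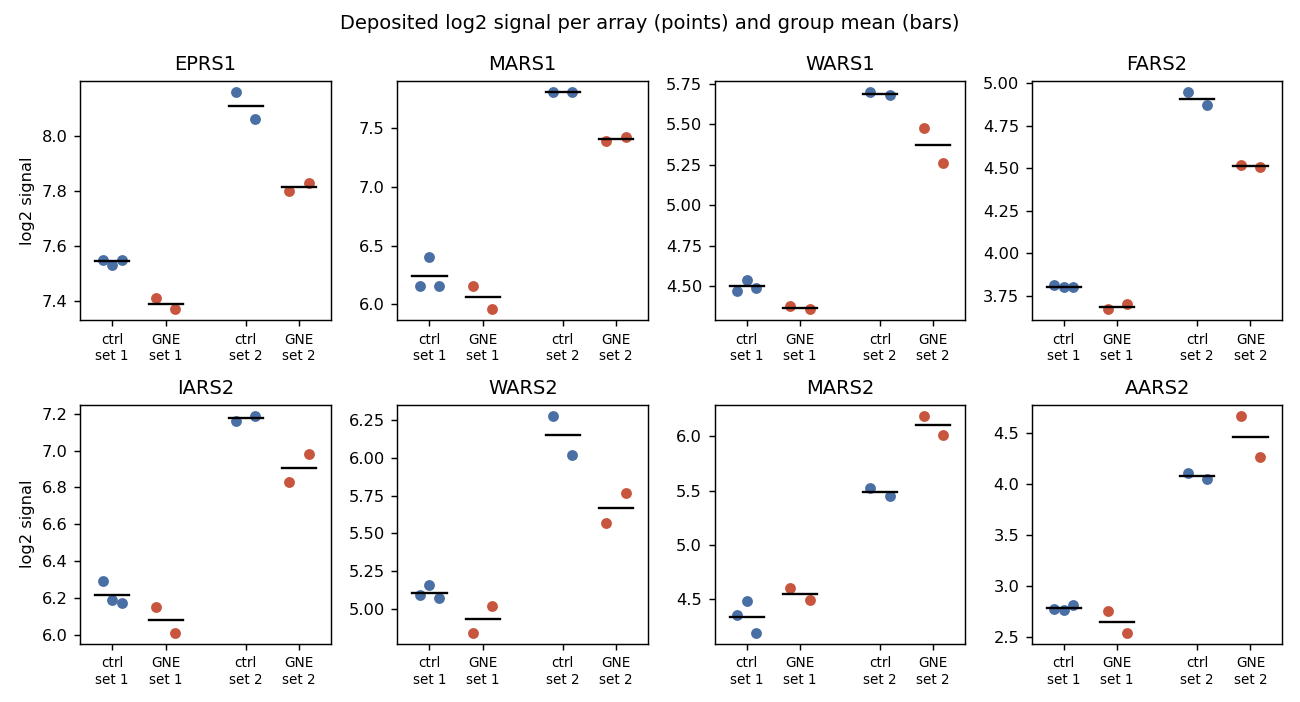
Deposited log2 signal (vertical axis, scaled for each gene) on each of the 9 arrays for 8 mitochondrial and cytosolic synthetase genes, with control arrays in blue, GNE-140 arrays in red and bars at the group means. GNE-140 arrays lie below the controls of their set in EPRS1, MARS1, WARS1, FARS2, IARS2 and WARS2 and above them in MARS2, while AARS2 is lower in set 1 (-0.13) and higher in set 2 (0.39).

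Counted over all members, 17 of the 34 (50.0%) had both GNE-140 arrays below both controls in set 2, where 20.5% of all genes did, and 9 had this separation in set 1, where 5.98% of all genes did. The 6 genes lower at an unadjusted p under 0.05 were the members with it in both sets (17.6% of members, 3.28% of all genes). Some of these separations were very small. Among the 17, the gap between the groups in set 2 ran from 0.00049 (FARSA) to 0.37 (MARS1). Among the 9, the gap in set 1 ran from 0.0013 (MARS1) to 0.17 (QARS1). In the other direction, 5 members (VARS1, AARS2, EARS2, HARS2 and MARS2) lay above both controls in set 2, where 24.4% of all genes did, and 2 (HARS1 and MARS2) in set 1, where 6.61% did. MARS2 was the member that lay above in both sets, as 3.85% of all genes did.

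Cytosolic and mitochondrial genes were then set side by side. Of the 19 cytosolic genes, 17 (89.5%) had a negative log2 fold change with a median of -0.08, and of the 15 mitochondrial genes 8 (53.3%) with a median of -0.05, beside 47.7% and a median of 0.01 over all genes. The difference between the compartments was not tested, since genes of 1 culture are not replicates. The mitochondrial median came to -0.01 without GNE-140 array B of set 1 and to -0.02 without control array B of set 1. In set 2 the cytosolic median was -0.11 and 16 of 19 (84.2%) were negative, beside 47.0% of all genes. Of the 19, 13 (68.4%) had GNE-140 arrays below the controls. So did 4 of the 15 mitochondrial genes (26.7%) and 20.5% of all genes. In set 1 the cytosolic median was -0.02, with 13 of 19 (68.4%) negative, 2 at 0 and 5 (26.3%) below the controls. The mitochondrial median of set 1 was -0.06, with 11 of 15 (73.3%) negative and 4 (26.7%) below the controls. Over all genes, 47.6% were negative in that set and 5.98% lay below the controls. The difference between the sets was not tested for these medians. Taken array by array as the median deviation from the set's controls, the cytosolic genes were at -0.16 and -0.09 on the GNE-140 arrays of set 2 and at 0.01 and -0.01 on its controls. In set 1 the GNE-140 arrays, at -0.02 each, were level with the lowest control, and the controls ran from -0.02 to 0.04. The mitochondrial genes were at -0.01 and -0.03 on the GNE-140 arrays of set 2, between the controls at 0.08 and -0.08. In set 1 they were at -0.03 and -0.12 on the GNE-140 arrays and at 0.01, 0.06 and -0.04 on the controls, so that array B lay below every control and array A did not. The median over all genes stayed between -0.01 and 0.02 on every array.

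**Figure D3:**
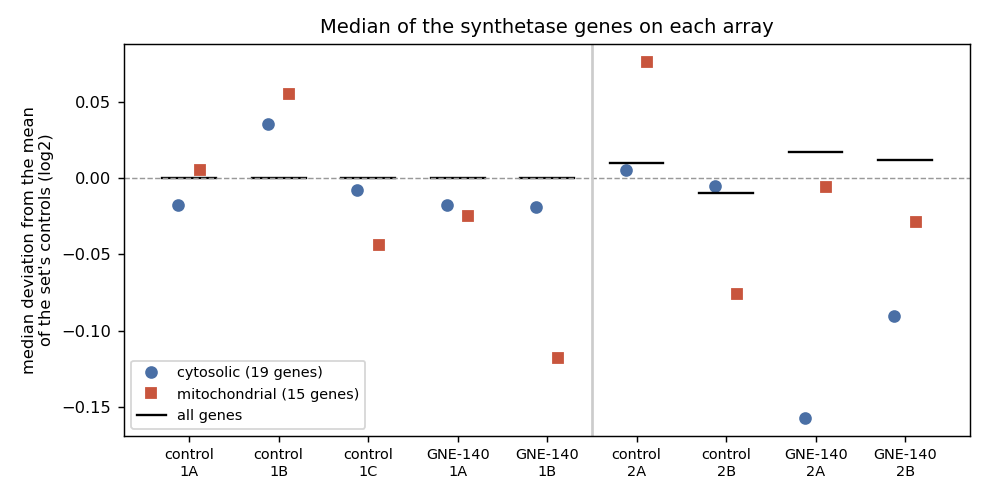
Median deviation from the mean of the set's control arrays (vertical axis, log2) over the 19 cytosolic genes (blue circles), the 15 mitochondrial genes (red squares) and all genes (black bars), for each of the 9 arrays. The cytosolic medians of the GNE-140 arrays in set 2 (-0.16 and -0.09) lie below those of its controls, and those of set 1 (-0.02 each) are level with its lowest control.

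Many values in set 1 repeated exactly from array to array. For 16 of the 34 members (47.1%) at least 3 of the 5 arrays of set 1 carried the same value, as for 48.8% of all genes, and in set 2 no member did. FARSB, the beta chain of the cytosolic phenylalanyl enzyme, and IARS1, the cytosolic isoleucyl enzyme, carried 1 value on all 5 arrays (6.72 and 7.63), so their log2 fold change in set 1 is 0 by the file itself. In set 2 IARS1 read 8.86 and 8.98 on the controls and 8.68 and 8.74 with GNE-140, a log2 fold change of -0.21 that was not called.

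Among the enzymes of the multisynthetase complex, all 7 genes had a negative log2 fold change with the set as a block, from -0.28 (MARS1) to -0.04 (LARS1, the leucyl enzyme), with a median of -0.10. In set 2, 6 of the 7 had GNE-140 arrays below the controls, where 20.5% of all genes did, and the median was -0.15. The exception was QARS1, the glutaminyl enzyme, which read 7.21 and 7.05 on the controls and 7.17 and 7.11 with GNE-140. In set 1, in turn, QARS1 was lower, with 5.91, 6.01 and 6 against 5.73 and 5.64, so that its log2 fold change was -0.29 in set 1 and 0.01 in set 2, and the difference between the sets was not called (limma adjusted p = 0.592). KARS1 (-0.08) and RARS1 (-0.08), the lysyl and arginyl enzymes, were closer to 0. The 12 cytosolic genes outside the complex had a median of -0.05, with 10 (83.3%) negative. In set 2, 7 of them (58.3%) also had GNE-140 arrays below the controls, with a median of -0.10. The difference between genes inside and outside the complex was not tested.

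Of those 12, CARS1, the cysteinyl enzyme, was the farthest below 0. It read 4.70, 5.29 and 4.91 on the controls and 4.91 and 4.74 with GNE-140 in set 1, and 5.88 and 5.94 against 5.50 and 5.57 in set 2. The groups overlapped in set 1, where the controls spanned the GNE-140 arrays, and were 0.32 apart in set 2. The log2 fold change was -0.25 (SE 0.12, limma adjusted p = 0.533). After CARS1 and WARS1, which is described above, NARS1 (-0.13), TARS1 (-0.09), GARS1 (-0.06), FARSA and FARSB (-0.06 and -0.05), AARS1 and YARS1 (-0.04 each) and SARS1 (0.00) followed, the enzymes of asparagine, threonine, glycine, phenylalanine, alanine, tyrosine and serine in that order.

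The cytosolic genes above 0 were HARS1 and VARS1. HARS1, the histidyl enzyme, read 4.21, 4.30 and 3.87 against 4.5 and 4.39 in set 1, and 4.68 and 4.68 against 4.69 and 4.68 in set 2. It was higher on the GNE-140 arrays in set 1 and level in set 2, with log2 fold changes of 0.32 and 0.00, and 0.18 with the set as a block (SE 0.11, limma adjusted p = 0.611). HARS1 and HARS2 lie head to head in the genome, with starts 85 bases apart and promoter windows that share 184 bases, and HARS2 had a log2 fold change of 0.07. VARS1, the valyl enzyme, gave 0.10, of which set 2 carried 0.25 and set 1 -0.01, whereas its other probe set, of lower signal, gave -0.06. The 7 probe sets of VARS2 gave between 0.05 and 0.07.

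By enzyme class, the 10 cytosolic class I genes had a median log2 fold change of -0.12 and the 9 class II genes -0.06. The 3 cytosolic genes lower at an unadjusted p under 0.05 were all counted in class I. EPRS1, which is among them, charges both glutamate and proline tRNA and was counted in class I alone. Of the mitochondrial genes for these amino acids, EARS2 was counted in class I and PARS2 in class II. The 13 cytosolic genes listed as ATF4 targets had a median of -0.09, with 12 negative, and the 6 others -0.07, with 5 negative. The 7 cytosolic genes whose promoter window held a match to TGATGNAA had a median of -0.10, and the 9 cytosolic genes of the table without it -0.08. In set 2 these medians were -0.20 and -0.11. These groups overlap and were described without a test.

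Among the mitochondrial genes, the values ranged from -0.32 for WARS2 to 0.39 for MARS2. Their median SD within groups was 0.09 in set 1 and 0.13 in set 2. It was 0.03 and 0.07 for the cytosolic genes and 0.10 and 0.13 for all genes. At least 3 arrays of set 1 carried the same value for 10 of the 19 cytosolic and 6 of the 15 mitochondrial genes. PARS2, the prolyl enzyme, had a log2 fold change of -0.20 (SE 0.12, limma adjusted p = 0.585) and was carried in set 1 by 1 array. Its signals there were 3.35, 3.44 and 3.35 on the controls and 3.35 and 2.82 with GNE-140. YARS2 (-0.14), RARS2 (-0.13), TARS2 (-0.09) and LARS2 (-0.05) were also negative. CARS2 (0.05), VARS2 (0.06), NARS2 (0.06), HARS2 (0.07), AARS2 (0.10) and EARS2 (0.11) were positive. EARS2, the mitochondrial glutamyl enzyme, read 4.11 and 3.90 on the controls and 4.43 and 4.19 with GNE-140 in set 2, and 3.57, 3.70 and 3.57 against 3.57 and 3.56 in set 1. The groups of set 2 were 0.08 apart and those of set 1 overlapped.

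For 13 mitochondrial genes the cytosolic gene of the same amino acid was measured too, which gives 14 pairs, as phenylalanine has 2 cytosolic genes. EPRS1, which serves 2 amino acids, was not paired with EARS2 and PARS2. In 8 pairs both genes had a negative log2 fold change, in 2 both a positive one, and in 4 (alanine, cysteine, methionine and asparagine) the cytosolic gene was negative and the mitochondrial gene positive. The widest difference was that of methionine, where MARS2 exceeded MARS1 by 0.67 on the log2 fold change scale (SE 0.14), by 0.38 in set 1 and 1.01 in set 2. It joins the largest rise and the second-largest fall of all members, and no p is given, because the pair stands out by the values already shown. CARS2 exceeded CARS1 by 0.30 (SE 0.19) and NARS2 exceeded NARS1 by 0.19 (SE 0.10). At the other end, FARS2 was below FARSB by a log2 fold change difference of -0.19 (SE 0.05) and below FARSA by -0.19 (SE 0.08). FARSB carried 1 value on all 5 arrays of set 1, so it added no spread there to the SE of its pair. The mitochondrial gene was above its cytosolic partner in both sets in 3 pairs and below it in both in 5.

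**Figure D4:**
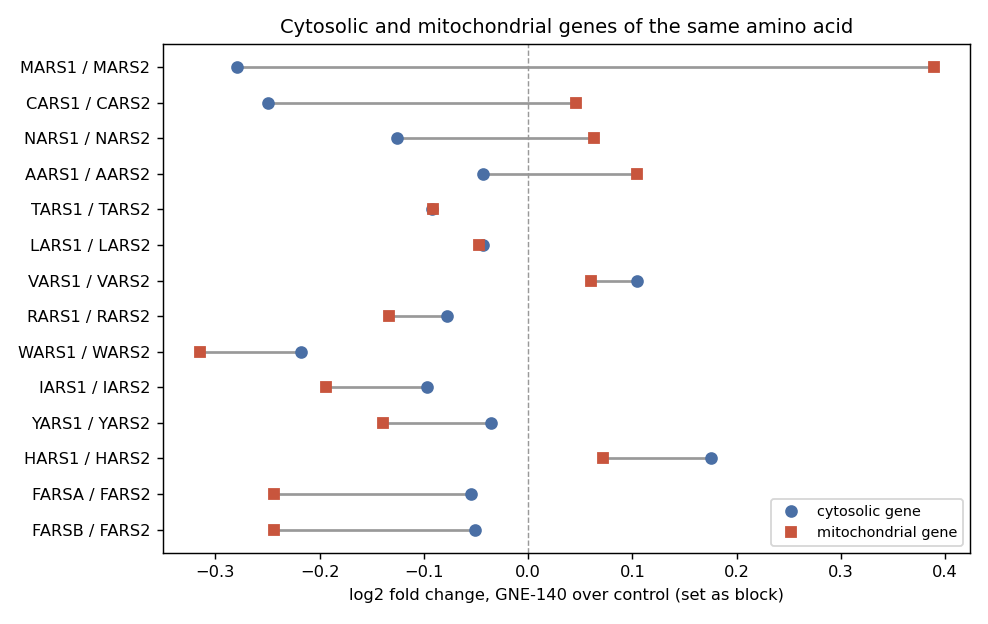
Log2 fold change with GNE-140, set as a block (horizontal axis), of the cytosolic gene (blue circle) and the mitochondrial gene (red square) of the same amino acid in 14 pairs, joined by a line. Pairs are ordered by the mitochondrial minus the cytosolic value, from 0.67 for methionine to -0.19 for phenylalanine, and 4 pairs lie on opposite sides of 0.

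Of 19 other genes of tRNA charging, 12 were measured and none was called by limma. At an unadjusted p under 0.05, 0 were lower and 2 higher, beside 6.16% and 7.51% of all genes. The median log2 fold change of the 12 was 0.01. The 2 were GATC (0.40, SE 0.11, limma adjusted p = 0.220), a subunit of the mitochondrial complex that makes glutaminyl-tRNA, and TRNT1 (0.26, SE 0.09, limma adjusted p = 0.337), which adds the CCA end to tRNAs. AIMP1, a scaffold of the multisynthetase complex, gave -0.03, and XPOT, the exporter of tRNA from the nucleus, gave -0.01. GATB, a partner of GATC in that complex, was the lowest at -0.24 (adjusted p = 0.529).

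Other genes of the amino acid response were called in both directions. Of 33 measured (35 listed), 4 fell and 3 rose, with a median log2 fold change of -0.04. By the same threshold 228 of all 22392 genes fell and 152 rose. The cystine carrier gene SLC7A11 rose by a log2 of 1.25 (limma adjusted p = 0.0022), and PPP1R15A, a regulatory subunit of the phosphatase that reverses eIF2 alpha phosphorylation, by 0.73 (adjusted p = 0.0285). DDIT4, an inhibitor of mTORC1 signalling, fell by 0.76 (adjusted p = 0.0269), and PSAT1, of serine synthesis, fell by 0.57 (adjusted p = 0.0271). The others called were CEBPB, which rose, and PSPH and SLC1A5, which fell. ATF4 itself gave 0.32 and asparagine synthetase (ASNS), a classical ATF4 target, -0.41, neither called (limma adjusted p = 0.222 and 0.375).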

How the data were processed

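RNA of MDA-MB-231 cells was hybridised to GeneChip Human Gene 2.1 ST arrays. The authors took the scanner files through the Expression Console and, per the labels, the Transcriptome Analysis Console, and deposited log2 signals of 53617 probe sets. How signals were summarized, background-corrected and normalized, and with which versions, was not given in the sources used here. Their log2 scale was inferred from how far the values run. The number of arrays limits the precision.

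Groups followed titles and treatment labels. Of the probe sets, 23866 carried 1 gene symbol in the platform annotation, 1852 several and 27899 none. Genes were named from the first kind only. All probe sets were fitted with limma 3.58.1 in R 4.3.3 (lmFit, eBayes), with set and treatment as terms over 9 arrays, within each set, and with their interaction, and adjusted by Benjamini-Hochberg over all probe sets. A call needed an adjusted p under 0.1, the study's cutoff. Group values and pairs were described without a test. The procedure was tested on simulated data. Tied values were counted where 3 or more arrays of a set carried exactly the same value.

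The members, gene lists and subgroups were chosen with earlier results of these data known. Values of every array were due for members past the threshold, of which there were none, and for those with the largest rise and fall. Other members shown that way were picked after their values were seen. Alternatives were no set term, median centring, quantile normalization, a filter on low signals, the mean of a gene's probe sets, a trended and robust variance, the replicate letters as a block and leaving out each array. Promoter sequences were RefSeq's, build GRCh38.p14.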

Additional observations from a re-analysis of the deposited data

Results flagged for a closer look

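AARS2, the mitochondrial alanyl-tRNA synthetase, was singled out because its arrays moved in opposite directions in the 2 sets. In set 1 its log2 signals were 2.77, 2.76 and 2.81 on the controls and 2.75 and 2.54 with GNE-140, and in set 2 they were 4.11 and 4.05 against 4.67 and 4.26. Every GNE-140 array lay below the controls in set 1, the nearest pair being only 0.0067 apart, and above them in set 2, by 0.15. The log2 fold change in set 2 exceeded that in set 1 by 0.519, and the interaction of set and treatment was not called (limma adjusted p = 0.558). Groups of 2 or 3 arrays are too small to single out an array that stands apart.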

How the results depend on the processing

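Over 16 alternatives and 34 members, 18 of 544 log2 fold changes turned sign, in 15 members, and 0 did among the 7 members at an unadjusted p under 0.05. Calls appeared in 2 cases. Quantile normalization over the 9 arrays called 1 member (EPRS1, -0.28, limma adjusted p = 0.0782) and 1.23% of all probe sets, and the mean of all probe sets of a gene, which tests 22392 genes, called 1 (MARS2, 0.39, limma adjusted p = 0.0973) and 3.76% of all genes, beside 2.94% of the members. The study's thresholds, set 2 and the interaction stayed at 0 members in every alternative run for them. In set 1 leaving out 1 array gave 0 to 2 calls, the 2 being EPRS1 (-0.18, limma adjusted p = 0.0864) and PARS2 (-0.56, adjusted p = 0.0865) without GNE-140 replicate A. That fit has 1 GNE-140 array, which is assumed to vary like the controls, and it called 5.6% of all probe sets. Members lower at an unadjusted p under 0.05 numbered 12 after quantile normalization and 0 without the set term, which also left 0 higher. Without the set term, the cytosolic median was 0.022 and the mitochondrial median 0.0918, 8 cytosolic genes were negative and the median of all probe sets moved from 0.005 to 0.085, since each group then mixes sets of different scale in different proportions. The cytosolic median was -0.127 after quantile normalization and ran from -0.0951 to -0.0564 when each array was left out, while the mitochondrial median ran from -0.0648 to -0.0122. The cytosolic value was -0.0581 without control replicate A and -0.0564 without control replicate B of set 2. With the replicate block, set and letter taken as pairs, 6 members were lower and 1 higher at an unadjusted p under 0.05, and calls over all probe sets went from 517 to 0. Deviations of same-lettered arrays from their group mean correlated at 0.03 and -0.152 in set 1 and at -0.002 for both letters in set 2. In a group of 2 arrays the deviations are equal and opposite, so both letters of set 2 give the same number. These values showed no pairing by letter, but they are too few to show that it is absent. No value of a member had more than 3 control and 2 GNE-140 arrays of a set behind it, and 16 members had repeated values in set 1. The cause of the other differences was not tested.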
